A study of Mus musculus with 4 samples.

Results

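A set of 10 genes of neutrophil receptors and granule proteins was followed through back skin of mice treated with imiquimod: Csf3r, Fpr1, Fpr2, Clec4d, Clec4e, Trem1, Retnlg, Ngp, Ltf and Ly6g. Their rows were found by gene symbol. Of the 10 symbols, 9 had a row among the 20611 genes of the count tables, and Ly6g was not analysed here. All mice were male BALB/c, 8 to 9 weeks old, and their backs were treated with 47 mg of 5% imiquimod cream daily, from day 1 to day 5. Imiquimod activates a Toll-like receptor and gives mouse skin a psoriasis-like inflammation. The group IMQ (1 library) had the cream alone, IMQ+VEH (2 libraries) also had a placebo lotion about 1 h after the cream, and IMQ+IDMF (1 library) had that step with a lotion holding IDMF. IDMF stands for isosorbide di-(methyl fumarate) and serves as a pro-drug of the anti-inflammatory drug dimethyl fumarate. Skin was taken on day 6. The labels describe the libraries as independent biological replicates. The labels leave the number of mice behind each library unstated, and every sample had been treated with imiquimod.

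Neutrophils reach inflamed skin from the blood and find their way by receptors for growth factors, bacterial peptides and damaged cells. Csf3r binds granulocyte colony-stimulating factor, which drives the making and release of neutrophils. Fpr1 and Fpr2 sense formylated peptides of bacteria and mitochondria, Clec4d and Clec4e are C-type lectins that bind microbial glycolipids, and Trem1 amplifies inflammatory signals. The granule proteins Ngp and Ltf are made mostly by precursors in the bone marrow, so that mature neutrophils in tissue can hold the proteins with little of the mRNA. Monocytes and macrophages also express several of the receptors. In bulk RNA, fewer cells of a type and less RNA per cell cannot be told apart.

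Total counts ran from 21167149 to 26639628 per library, so that a count of 3, used as the floor for a gene that was not detected, equals 0.107 to 0.146 CPM (counts scaled by effective library size). Intervals and floors below cover counting error only. Differences were tested with edgeR's quasi-likelihood test over the 15068 genes that passed its filter on low counts, with p-values adjusted by the Benjamini-Hochberg method and a threshold of 0.05. In the fit with 1 mean for each of the 3 groups, the spread between replicates came from the IMQ+VEH pair alone, with 1 residual degree of freedom. The single libraries were assumed to vary like that pair. The estimate of each gene was drawn towards a trend over all genes tested (prior degrees of freedom 11.2). In the numbering of the sequencing core, IMQ+VEH replicate 2 stands away from the rest, and the labels do not say whether this marks a separate preparation.

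The receptors were present at a low level and the granule genes were at or near the floor. On the FPKM scale of the authors, which is per transcript length and allows genes to be compared, the mean over the 4 libraries was 1.28 for Fpr2, 1.20 for Csf3r, 0.895 for Fpr1 and 0.654 for Clec4d. The ranges over libraries of these 4 genes overlapped: 0.386 to 2.37 for Fpr2, 0.893 to 1.77 for Csf3r, 0.463 to 1.32 for Fpr1 and 0.220 to 1.25 for Clec4d. Their order is therefore not resolved. Retnlg (mean 0.132), Trem1 (0.0874), Clec4e (0.0858), Ngp (0.0453) and Ltf (0.0157) came lower, and of these only Retnlg, Trem1 and Clec4e went above the 0.181 FPKM that Ngp had in its highest library. Cxcr2, the receptor for neutrophil-attracting chemokines, lay well above all 9, with 12.6 to 16.2 FPKM, as did Il1r2, a decoy receptor for interleukin-1, with 22.9 to 35.4 FPKM. Which cells of the skin held the RNA of Cxcr2 and Il1r2 was not tested.

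**Figure D1:**
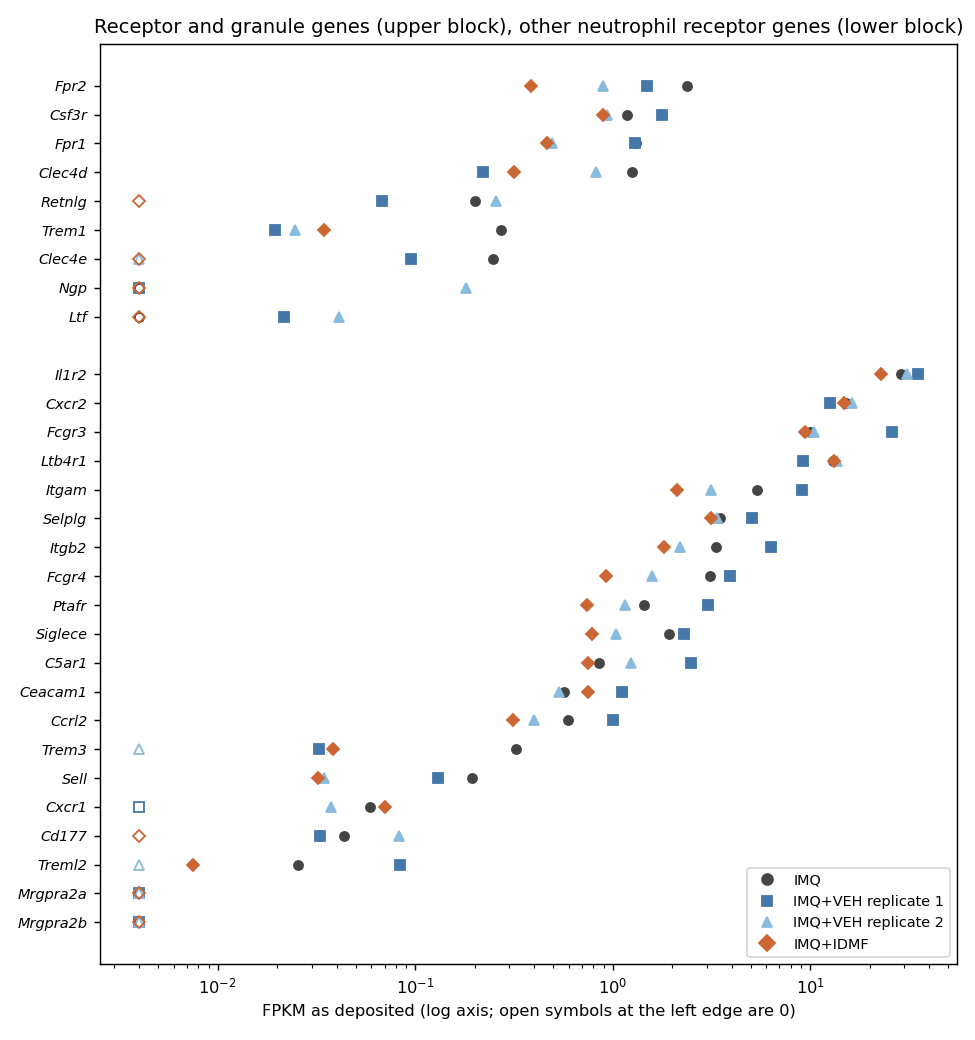
FPKM as deposited (log axis) of the 9 receptor and granule genes (upper block) and of 20 other neutrophil receptor genes (lower block), with 1 symbol per library and open symbols at the left edge for 0. Fpr2 and Csf3r lead the upper block with means of 1.28 and 1.20, and Ltf is last with 0.0157.

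The label of a neutrophil gene set could be checked only in part. Of 22 other granule protein genes, all had counts in some library, and those known from precursors ranged widely. Elane, neutrophil elastase, had 0, 10, 4 and 3 counts in IMQ, IMQ+VEH replicates 1 and 2 and IMQ+IDMF, and Camp, the cathelicidin, had 1, 7, 16 and 6. Prtn3, proteinase 3, had 27, 197, 19 and 78, and reached 7.08 FPKM in IMQ+VEH replicate 1. Cebpe, the transcription factor of late granule genes, had 0 counts in all 4 libraries. Elane and Cebpe were chosen after their values were seen. Most counts of the set came from the receptor genes, several of which monocytes and macrophages also express. Csf3r gave the largest part, with 157 of 410 counts in IMQ, 229 of 363 and 91 of 175 in the IMQ+VEH pair and 93 of 136 in IMQ+IDMF.

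Csf3r, on chromosome 4 (126024550 to 126044440, GRCm38, 17 merged exons in the GENCODE M21 annotation), had 157 counts in IMQ, 229 and 91 in IMQ+VEH replicates 1 and 2, and 93 in IMQ+IDMF. These correspond to 6.19, 8.16, 4.44 and 4.16 CPM. IMQ+IDMF thus lay with IMQ+VEH replicate 2, and the IMQ+VEH pair (6.30 ± 2.63 CPM, SD, n = 2) enclosed IMQ. Within that pair the difference exceeded counting error, with a ratio of replicate 2 to replicate 1 of 0.544 (95% interval 0.422 to 0.696), whereas IMQ+IDMF had 0.937 times the level of replicate 2 (0.694 to 1.26). The log2 fold change of IMQ+IDMF against IMQ+VEH was -0.60 (SE 0.54, adjusted p = 1). That of IMQ+VEH against IMQ was 0.03 (SE 0.52, adjusted p = 0.997). Of the 50-base windows of the Csf3r transcripts, the length of the reads, 10.7% also occur in transcripts of other genes.

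The formyl peptide receptor genes lie head to head on chromosome 17, Fpr1 on the minus strand (17876471 to 17883940) and Fpr2 on the plus strand (17887824 to 17893952), with 3883 bases between them. Fpr1 had 54 counts in IMQ, 53 and 16 in the IMQ+VEH pair and 16 in IMQ+IDMF, or 2.13, 1.89, 0.780 and 0.716 CPM. As for Csf3r, IMQ and IMQ+VEH replicate 1 were the high libraries and IMQ+IDMF lay with replicate 2. The pair (1.33 ± 0.784 CPM, SD, n = 2) spanned most of the range. IMQ+IDMF had a log2 fold change of -0.91 against IMQ+VEH (SE 0.90, adjusted p = 1), and IMQ+VEH of -0.66 against IMQ (SE 0.81, adjusted p = 0.974).

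Fpr2, which besides formylated peptides binds serum amyloid A and annexin A1, had 95 counts in IMQ, 59 and 28 in the IMQ+VEH pair and 13 in IMQ+IDMF. On the CPM scale these were 3.74, 2.10, 1.37 and 0.581. IMQ was the highest library and IMQ+IDMF the lowest, with the IMQ+VEH pair between them. Of all genes tested, 30.1% were highest in IMQ and 19.5% were lowest in IMQ+IDMF. By counting error alone, IMQ+IDMF had 0.276 times the level of IMQ+VEH replicate 1 (95% interval 0.139 to 0.510) and 0.426 times that of replicate 2 (0.202 to 0.849), which compares these libraries and not the treatments. In the edgeR fit the log2 fold change against IMQ+VEH was -1.58 (SE 0.81, adjusted p = 1), so Fpr2 did not pass the threshold. IMQ+VEH against IMQ gave -1.100 (SE 0.68, adjusted p = 0.753). Its exons overlap those annotated for Fpr3 on the same strand, and 31.5% of the 50-base windows of its transcripts also occur in transcripts of other genes (Gm5966, Fpr3 and Fpr1), against 0.0784% for Fpr1. Fpr3 had 1 count in IMQ, 1 and 0 in IMQ+VEH and 0 in IMQ+IDMF. The counts of Fpr2 are thus uncertain where such reads were dropped or shared out.

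Clec4d and Clec4e, whose products Dectin-3 and Mincle signal through the Fc receptor gamma chain, lie tail to tail on chromosome 6 (123262111 to 123275265, plus strand, and 123281789 to 123289870, minus strand), 6523 bases apart. Clec4d had 52 counts in IMQ, 9 and 27 in the IMQ+VEH pair and 11 in IMQ+IDMF, or 2.05, 0.321, 1.32 and 0.492 CPM. In contrast to Csf3r and the formyl peptide receptors, IMQ+VEH replicate 2 was above replicate 1, by a ratio of 4.11 (95% counting interval 1.87 to 9.92), and IMQ+IDMF lay between them. The log2 fold change of IMQ+IDMF against IMQ+VEH was -0.70 (SE 1.08, adjusted p = 1), and without replicate 2 the log2 CPM difference was 0.51, of the opposite sign. IMQ+VEH against IMQ had -1.35 (SE 0.94, adjusted p = 0.834), and both IMQ+VEH libraries lay below IMQ. For replicate 2 this gap was within counting error, with a ratio to IMQ of 0.643 (0.388 to 1.04).

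Clec4e had 21 counts in IMQ, 8 and 0 in the IMQ+VEH pair and 0 in IMQ+IDMF, or 0.827, 0.285, 0 and 0 CPM. It was thus found in IMQ and in 1 of the 2 IMQ+VEH libraries. With a floor of 3 counts per library, IMQ+IDMF was at least 6.17-fold lower than IMQ and at least 2.13-fold lower than IMQ+VEH replicate 1, and IMQ+VEH replicate 2 was at least 5.66-fold lower than IMQ. The 95% counting limits of these ratios were lower, at 4.59, 1.36 and 4.21. IMQ+VEH against IMQ had a log2 fold change of -2.38 (SE 1.38, adjusted p = 0.723). For IMQ+IDMF against IMQ+VEH, where 1 side is at 0, no fold change is given, and the adjusted p was 1.

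Trem1 lies on chromosome 17 (48232768 to 48246924, plus strand). It had 28 counts in IMQ, 2 and 2 in the IMQ+VEH pair and 3 in IMQ+IDMF, or 1.103, 0.0713, 0.0976 and 0.134 CPM. IMQ alone held a level above the floor, and the 3 lotion-treated libraries differed by no more than 1 count. The ratio of IMQ to IMQ+VEH was 15.5 for replicate 1 (95% counting interval 3.90 to 134) and 11.3 for replicate 2 (2.85 to 98.0), and to IMQ+IDMF it was 8.22 (2.54 to 42.3). Of the 6 genes tested, Trem1 alone had an unadjusted p under 0.05 for IMQ+VEH against IMQ (log2 fold change -3.65, SE 1.24). Trem1 passed the filter on low counts only through IMQ, so a lower value elsewhere was favoured by the filter. Its edgeR adjusted p was 0.338 and did not pass the threshold. IMQ+IDMF against IMQ+VEH had 0.66 (SE 1.60, adjusted p = 1).

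**Figure D2:**
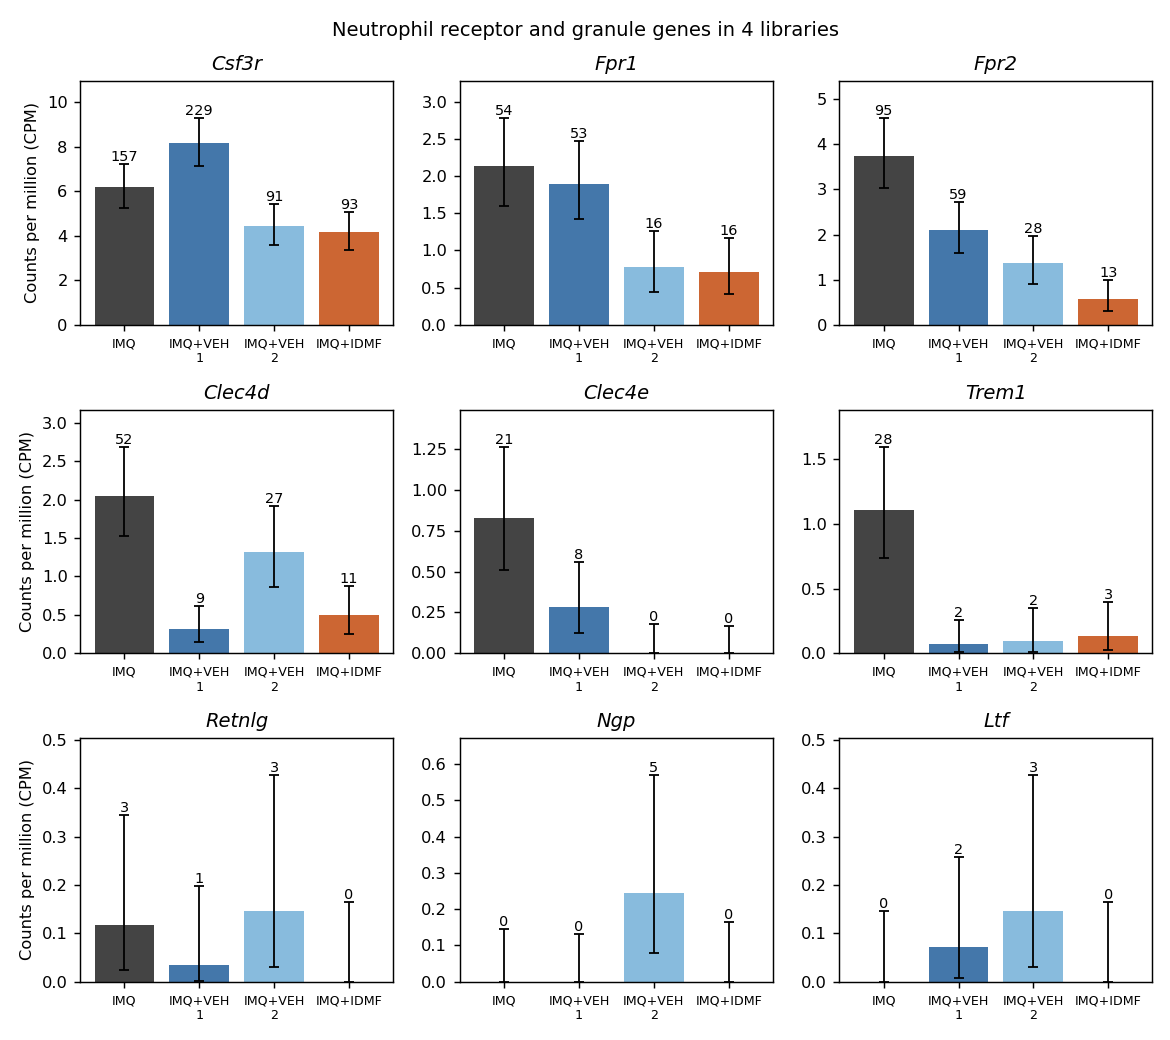
CPM (y axis, each panel on its own scale) of 9 genes in the 4 libraries, with the raw count above each bar and bars of error for the 95% Poisson counting interval. Fpr2, Clec4d, Clec4e and Trem1 are highest in IMQ with 95, 52, 21 and 28 counts, while Csf3r is highest in IMQ+VEH replicate 1 with 229.

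The sequences before the start sites of Fpr1, Fpr2, Clec4d, Clec4e and Trem1 are shown (RefSeq, GRCm38.p6, 5′ to 3′ on the gene's strand, up to 250 bases, without bases annotated as exon). These genes were picked for lying below IMQ in both IMQ+VEH libraries, which is a position and not a called difference. Clec4e and Trem1 passed the filter on low counts only through IMQ. Fpr1 in replicate 1 and Clec4d in replicate 2 were within counting error of IMQ. Capitals mark letters of 4 motifs searched on both strands: GAGGAA (core of PU.1 sites), TTNNGNAA (C/EBP), TTCNNNGAA (STAT) and the NF-kB consensus. PU.1 and C/EBP factors are the main regulators of myeloid genes.
Fpr1, chr17:17883941-17884189, minus strand: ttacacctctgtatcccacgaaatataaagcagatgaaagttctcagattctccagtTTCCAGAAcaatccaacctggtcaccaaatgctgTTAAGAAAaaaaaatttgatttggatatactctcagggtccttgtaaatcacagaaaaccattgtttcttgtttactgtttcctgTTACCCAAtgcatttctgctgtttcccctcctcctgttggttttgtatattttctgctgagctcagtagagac
Fpr2, chr17:17887574-17887823, plus strand: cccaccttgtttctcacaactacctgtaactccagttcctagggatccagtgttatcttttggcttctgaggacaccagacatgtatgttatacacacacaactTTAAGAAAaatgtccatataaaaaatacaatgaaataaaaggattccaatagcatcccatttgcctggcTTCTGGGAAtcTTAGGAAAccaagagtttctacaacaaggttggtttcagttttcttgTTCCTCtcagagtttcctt
Clec4d, chr6:123261857-123262106, plus strand: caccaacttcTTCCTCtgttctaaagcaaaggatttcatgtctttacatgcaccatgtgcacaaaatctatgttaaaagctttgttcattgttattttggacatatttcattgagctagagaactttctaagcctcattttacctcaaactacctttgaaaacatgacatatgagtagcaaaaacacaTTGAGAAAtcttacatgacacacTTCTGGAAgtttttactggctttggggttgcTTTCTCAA
Clec4e, chr6:123289872-123290121, minus strand: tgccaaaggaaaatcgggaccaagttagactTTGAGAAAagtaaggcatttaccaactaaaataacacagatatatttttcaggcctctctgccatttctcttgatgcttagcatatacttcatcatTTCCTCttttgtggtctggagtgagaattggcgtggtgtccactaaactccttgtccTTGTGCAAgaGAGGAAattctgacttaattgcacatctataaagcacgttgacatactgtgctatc
Trem1, chr17:48232489-48232738, plus strand: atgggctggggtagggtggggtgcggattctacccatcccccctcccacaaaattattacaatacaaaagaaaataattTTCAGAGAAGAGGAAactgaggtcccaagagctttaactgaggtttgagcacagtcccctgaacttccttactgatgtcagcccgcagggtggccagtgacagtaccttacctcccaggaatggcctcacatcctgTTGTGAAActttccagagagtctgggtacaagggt
A match is a run of letters and not a measured site. Start sites of all 10 genes were found in RefSeq. Within 250 bases before the start, the C/EBP letters occurred in 9 of the 10 genes, where 36.8% of 32851 promoters held them, and the PU.1 core in 7 of 10, where 23.3% did. The STAT letters occurred in 2 (Fpr2 and Trem1, against 7.02% of promoters), and the NF-kB consensus in 1 (Csf3r, against 7.25%). Among the 5 sequences printed, Clec4e held 2 PU.1 cores and 2 C/EBP matches, and Fpr1 held 3 C/EBP matches and no PU.1 core. No matches of different motifs overlapped in the 5 printed sequences. Fpr1 and Fpr2 each hold the C/EBP match ttaagaaa, 159 bases before the start in Fpr1 and 146 bases in Fpr2.

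The granule and secreted protein genes had too few counts to be tested, and every one of them was at 0 in IMQ+IDMF. Retnlg, a resistin-like protein of neutrophils (chromosome 16, 48872621 to 48874496), had 3 counts in IMQ, 1 and 3 in the IMQ+VEH pair and 0 in IMQ+IDMF. Ngp, neutrophilic granule protein (chromosome 9, 110419747 to 110423012), had 5 counts in IMQ+VEH replicate 2 and 0 in the other 3 libraries. Ltf, the iron-binding lactoferrin (chromosome 9, 111019271 to 111042767), had 0 counts in IMQ, 2 and 3 in the IMQ+VEH pair and 0 in IMQ+IDMF. The floor of 3 counts equals 0.118 CPM in IMQ and 0.134 CPM in IMQ+IDMF, and the 95% counting interval of a 0 reaches 0.145 and 0.165 CPM. None of the 3 had more than 5 counts in any library, so that no difference between groups was detectable at this depth.

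IMQ+IDMF against IMQ+VEH asked what IDMF adds to the lotion. None of the 6 tested receptor genes passed the threshold, and all had an adjusted p of 1. EdgeR called 0 of 15068 genes in all (0% of those tested), with 306 at an unadjusted p under 0.05, none of them among the 6, and DESeq2 also called 0. By position, IMQ+IDMF lay below both IMQ+VEH libraries for Csf3r, Fpr1, Fpr2, Retnlg and Ltf, 5 of the 9 genes, and above both for 1, Trem1. Of the 6 tested, 3 lay below both, where 27.5% of all genes tested did. For Csf3r and Fpr1 the gap to replicate 2 was within counting error, with log2 CPM differences of -0.09 and -0.11. Set against replicate 2 alone, 7 of the 9 genes were lower in IMQ+IDMF, and against replicate 1 alone 6 were. These counts include Retnlg and Ltf, and for replicate 2 also Ngp, which had too few counts to show a difference. The share of all genes tested was not worked out for either replicate alone. The median log2 fold change of the 6 was -0.80, or -0.65 with Clec4e at its bound, and that of all genes tested was -0.01.

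IMQ+VEH against IMQ asked what the lotion itself does. None of the 6 receptor genes was among the 100 of 15068 genes (0.664%) that passed, of which 51 rose and 49 fell. Both IMQ+VEH libraries lay below IMQ for 5 of the 6 (Fpr1, Fpr2, Clec4d, Clec4e and Trem1), where 35% of all genes tested did, and the same 5 genes were higher in IMQ than in all 3 other libraries, where 30.1% were. For 0 of the 6 did both IMQ+VEH libraries lie above IMQ, where 33.5% did. Clec4e and Trem1 passed the filter on low counts only through IMQ and so had to be high there. Of the other 4, 3 lay below IMQ in both libraries. The median log2 fold change was -0.88 over these 4, -1.22 over the 6 and 0.0025 over all genes tested. In the plot of fold changes, 5 of the 6 genes stand left of 0 in this comparison, with error bars that widen as the counts fall.

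**Figure D3:**
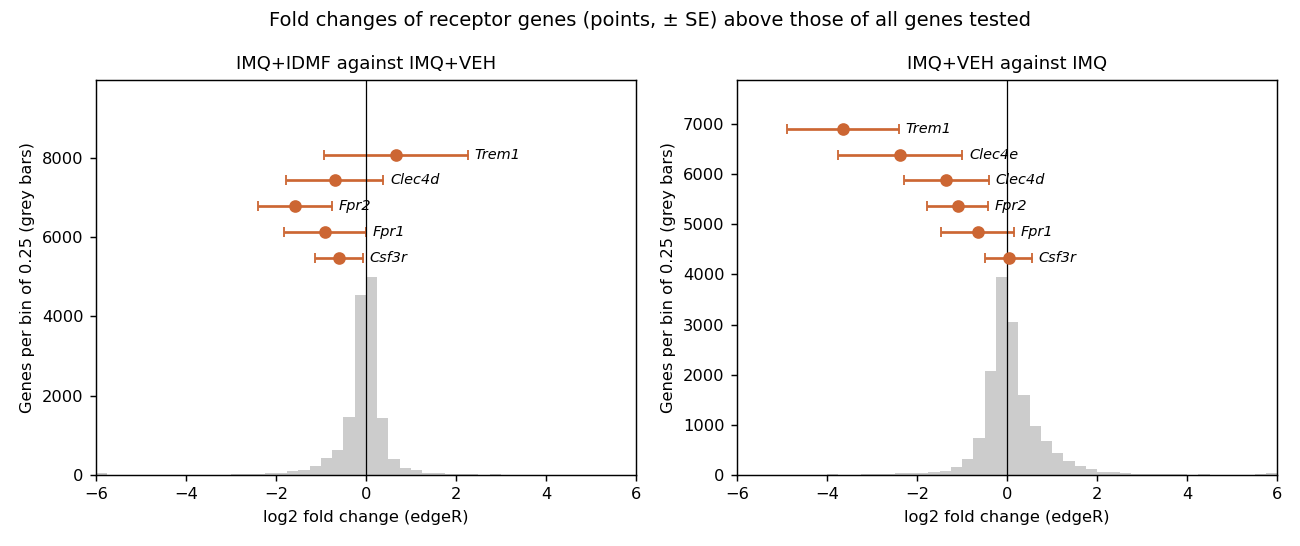
Log2 fold changes (x axis) of receptor genes as points with their SE, above the distribution of all 15068 genes tested (grey bars, genes per bin on the y axis, values beyond the axis placed in the end bins), for IMQ+IDMF against IMQ+VEH (left, without Clec4e, which has 0 counts in IMQ+IDMF) and IMQ+VEH against IMQ (right). Trem1 has 0.66 on the left and -3.65 on the right, and Fpr2 has -1.58 and -1.100.

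IMQ+IDMF and IMQ are single libraries, so only sizes are given for them, and this comparison shares its libraries with those above. IMQ+IDMF was below IMQ for 7 of the 9 genes and for all 6 of those tested, where 49.8% of all genes tested were lower. Without Clec4e and Trem1, which passed the filter on low counts only through IMQ, it was below IMQ for 4 of 4. For 3 of the 6 (Csf3r, Fpr1 and Fpr2) it was the lowest of all 4 libraries, where 19.5% were. The log2 CPM differences were -0.56 for Csf3r, -1.47 for Fpr1, -2.53 for Fpr2, -1.89 for Clec4d and -2.45 for Trem1. Fpr2 was 6.44-fold lower in IMQ+IDMF than in IMQ (95% counting interval 3.59 to 12.5). With IMQ and IMQ+VEH taken as 1 group of 3, edgeR called 0 genes (0%), with 168 at an unadjusted p under 0.05, and DESeq2 called 1, which was none of the 6. In that fit Fpr2 had a log2 fold change of -2.04 (SE 0.84, edgeR adjusted p = 0.9998) and was the only 1 of the 6 with an unadjusted p under 0.05.

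Genes that work with the receptors were taken from lists chosen by function. Among 20 other neutrophil receptors, 15 were tested and 0 were called in either comparison. IMQ+IDMF lay below both IMQ+VEH libraries for 11 of the 15, where 27.5% of all genes tested did. For none of the 15 did it lie above both, where 27.7% did. Both IMQ+VEH libraries lay below IMQ for 1 of the 15 and above it for 3, where 35% and 33.5% of all genes tested did. The median log2 fold change of IMQ+VEH against IMQ was 0.17. Cxcr2 was not among the 11: it had 1584 counts in IMQ, 1294 and 1324 in IMQ+VEH and 1307 in IMQ+IDMF (log2 fold change against IMQ+VEH 0.08, SE 0.29). Itgam, the integrin alpha chain CD11b, had 879, 1467, 404 and 293 counts in the same order (-1.46, SE 0.48, adjusted p = 1). Fcgr3, an Fc receptor, had 422, 1080, 348 and 333 (-0.90, SE 0.44). For both genes IMQ+VEH replicate 1 was the high library, as for Csf3r.

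Among 22 other granule protein genes 19 were tested and 0 were called in either comparison. IMQ+IDMF lay below both IMQ+VEH libraries for 11 of the 19 and above both for 3, where 27.5% and 27.7% of all genes tested did. Both IMQ+VEH libraries lay below IMQ for 6 of the 19 and above it for 8, where 35% and 33.5% of all genes tested did. The median log2 fold change of IMQ+VEH against IMQ was 0.24. S100a8 and S100a9, the calprotectin subunits that neutrophils and inflamed keratinocytes both make, were far more abundant than any receptor gene. S100a8 had 91242 counts in IMQ, 50533 and 18079 in IMQ+VEH and 16828 in IMQ+IDMF, and S100a9 had 127988, 74707, 25269 and 20828. Both had the order of libraries seen for Fpr2, with IMQ highest and IMQ+IDMF lowest. Their log2 fold changes were -0.83 (SE 0.60) and -1.06 (SE 0.67) for IMQ+IDMF against IMQ+VEH, and -1.42 (SE 0.56) and -1.37 (SE 0.61) for IMQ+VEH against IMQ. Lyz2, lysozyme of myeloid cells, was instead highest in IMQ+VEH replicate 1, with 7808 counts in IMQ, 10922 and 4586 in IMQ+VEH and 2961 in IMQ+IDMF.

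Of 16 adaptor and signalling genes, all were tested and 0 were called in either comparison, and IMQ+IDMF lay below both IMQ+VEH libraries for 7 of 16, against 27.5% of all genes tested. The most abundant, Stat3, which carries the signal of Csf3r, had a log2 fold change of -0.13 (SE 0.32) against IMQ+VEH, and Socs3, its feedback inhibitor, had -0.08 (SE 0.28). The direct partners of the lectins and of Trem1 were the adaptors Fcer1g, with 529 counts in IMQ, 833 and 380 in IMQ+VEH and 288 in IMQ+IDMF, and Tyrobp, with 642, 922, 395 and 300, both chosen after their values were seen. Both were lowest in IMQ+IDMF and highest in IMQ+VEH replicate 1, and neither followed the high IMQ level of Trem1 and Clec4e. Against IMQ+VEH they had -0.91 (SE 0.37) and -0.96 (SE 0.38), each with an adjusted p of 1. Among 10 transcription factors of neutrophil genes, 8 were tested and 0 were called. Cebpa and Cebpb, members of the C/EBP family, had -0.02 (SE 0.39) and 0.22 (SE 0.295) against IMQ+VEH. Spi1, the gene of PU.1, chosen after its values were seen, had -0.67 (SE 0.41). Its counts were 297 in IMQ, 393 and 204 in IMQ+VEH and 168 in IMQ+IDMF. Of the 8 tested, 3 lay below both IMQ+VEH libraries in IMQ+IDMF and 1 above both, where 27.5% and 27.7% of all genes tested did.

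Ligands that recruit or activate neutrophils included the only called genes among the lists of partner genes. Of 17 tested, 0 were called for IMQ+IDMF against IMQ+VEH, and for IMQ+VEH against IMQ 2 were called lower (0.325% of all genes tested were called lower) and 0 higher. Saa3, a serum amyloid A protein, had 1594 counts in IMQ, 390 and 218 in IMQ+VEH and 228 in IMQ+IDMF, and fell in IMQ+VEH against IMQ by 2.35 on the log2 scale (SE 0.30, adjusted p = 0.00328). Cxcl2, a neutrophil-attracting chemokine, had 87 counts in IMQ, 0 and 0 in IMQ+VEH and 6 in IMQ+IDMF (adjusted p = 0.0189). It was at least 32.1-fold lower in IMQ+VEH replicate 1 and 23.4-fold lower in replicate 2 than in IMQ, with a floor of 3 counts per library, and passed the filter on low counts only through IMQ. Saa3, Cxcl2 and Trem1 were higher in IMQ than in the 3 other libraries, as were 30.1% of all genes tested. For Cxcl2 and Trem1 the filter favoured this. Both IMQ+VEH libraries lay below IMQ for 9 of the 17 ligand genes and above it for 2, where 35% and 33.5% of all genes tested did. IMQ+IDMF lay below both IMQ+VEH libraries for 3 of the 17 and above both for 6, where 27.5% and 27.7% of all genes tested did. Cxcl1, chosen after its values were seen, had 18 counts in IMQ, 86 and 41 in IMQ+VEH and 85 in IMQ+IDMF. Anxa1, the annexin ligand of Fpr2, had 26745, 26043, 25700 and 21736 counts (log2 fold change against IMQ+VEH -0.17, SE 0.47). Csf3, the ligand of Csf3r, chosen after its values were seen, had 0 counts in IMQ, 7 and 8 in IMQ+VEH and 0 in IMQ+IDMF, too few to be tested.

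Relatives of the genes in the same families differed from them in level. In the resistin family, Retn had 724 counts in IMQ, 3386 and 2254 in IMQ+VEH and 2551 in IMQ+IDMF, and Retnla had 250, 1977, 1011 and 707, against at most 3 for Retnlg. Both rose in IMQ+VEH against IMQ, by 2.02 (SE 0.29, adjusted p = 0.00762) and 2.60 (SE 0.35, adjusted p = 0.00408) on the log2 scale. They were the 2 tested genes of this family, and 0.338% of all genes tested were called higher. Neither was called for IMQ+IDMF against IMQ+VEH, and which cells held their RNA was not tested. Of the 544 windows of 50 bases in the Retnlg transcripts, 0 were shared with another gene, so reads of these relatives are not placed on it by identical sequence. In the Clec4 cluster 8 genes were tested and 0 were called, and the most abundant were Clec4a2, Clec4a1, Clec4a3 and Clec4n, with 98 to 506 counts per library. All 4 were lowest in IMQ+IDMF by CPM, as were 19.5% of all genes tested. Of the 8, 6 lay below both IMQ+VEH libraries in IMQ+IDMF and 0 above both, where 27.5% and 27.7% of all genes tested did. Clec4d and Clec4e, counted in the 8, were not among the 6. The family of Ly6g is present in the tables, with Ly6d, Ly6a, Ly6e and Ly6c1 as the most abundant, and 0 of its 7 tested members were called. Of the TREM family, Trem2, a receptor of macrophages, had 27 counts in IMQ, 58 and 37 in IMQ+VEH and 27 in IMQ+IDMF, and so did not share the high IMQ level of Trem1.

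Markers of other cell types also differed in level between the libraries. The summed level of the 9 genes was 16.2 CPM in IMQ, 12.9 and 8.54 in the IMQ+VEH pair and 6.08 in IMQ+IDMF. The 15 monocyte and macrophage markers summed to 966, 1397, 855 and 619 CPM in the same order, none was at 0, and 14 of the 15 lay below both IMQ+VEH libraries in IMQ+IDMF, with a median log2 fold change of -0.995 and 0 called. Of all genes tested 27.5% lay below both and 27.7% above both, which are the shares to set beside each such count here. Of the 15 markers, 8 were higher in both IMQ+VEH libraries than in IMQ and 3 were lower, where 33.5% and 35% of all genes tested were. Fibroblast markers summed to 1936, 6869, 3625 and 2397 CPM, and 10 of 10 lay below both IMQ+VEH libraries in IMQ+IDMF. Mast cell markers summed to 31.2, 46.2, 34.0 and 25.1 CPM, with 5 of 8 below both, T and NK markers to 33.1, 55.3, 42.0 and 39.2 CPM, with 6 of 10 below both, and dendritic and Langerhans markers to 532, 598, 803 and 477 CPM, with 9 of 12 below both. Keratinocyte markers summed to 71720, 50699, 62284 and 57450 CPM, with 0 of 12 below both and 5 above both. The part of these differences in cell markers in the values of the receptor genes was not tested.

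**Figure D4:**
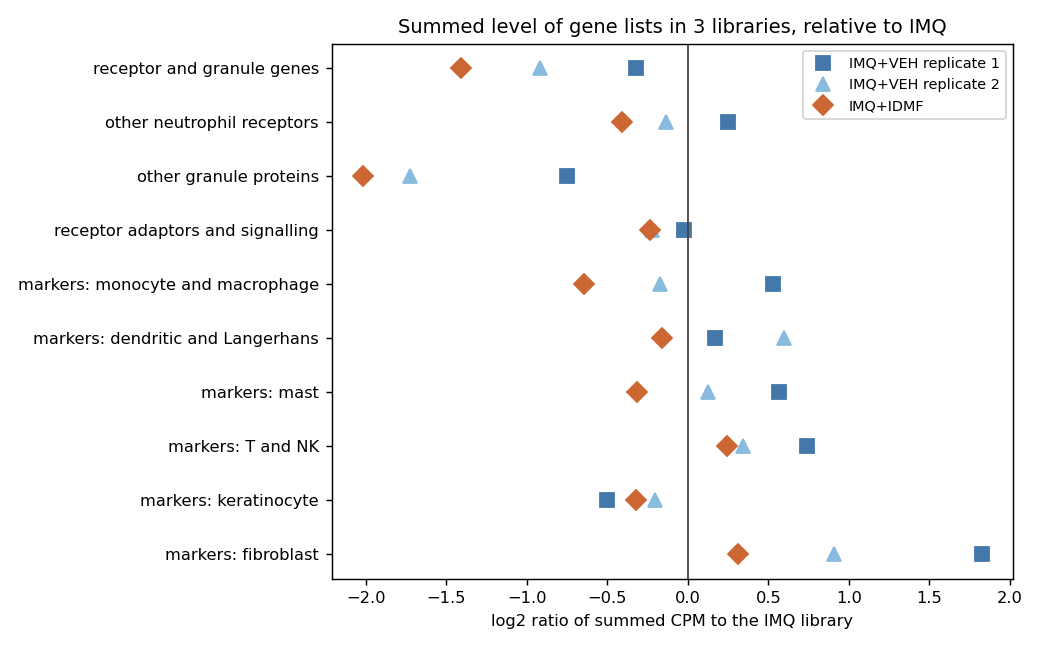
Log2 ratio of the summed CPM of each gene list to its sum in the IMQ library (x axis), for the IMQ+VEH pair and IMQ+IDMF. The receptor and granule genes, with sums of 12.9, 8.54 and 6.08 CPM against 16.2 in IMQ, lie left of 0 in all 3 libraries, while the fibroblast markers lie right of 0 in all 3.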

How the data were processed

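For each library the authors deposited a table of gene symbols with a raw count per gene and an FPKM value per gene, as named per the file headers. TopHat2, HTSeq and Cufflinks, with GRCm38 (mm10) as the build, are listed in the submitters' processing notes. Their versions, whether strand was used and how reads with several matches were counted were not given in the labels. Counts were fitted with the quasi-likelihood test of edgeR 4.0.16 (R 4.3.3) after filterByExpr and TMM scaling, with 1 mean per group, and DESeq2 1.42.0 was an alternative. Each SE was the size of the log2 fold change over the root of its F statistic, and tests were two-sided. P-values set each difference against a spread estimated from these few libraries and shared over genes. With IMQ and IMQ+VEH as 1 group, IMQ also entered that spread, with 2 residual degrees of freedom. Log2 CPM differences used a prior count of 2, counting intervals were exact Poisson or binomial, at 95%, and FPKM values were used only for levels. Named were the 10 genes, and from each other list the up to 4 genes with the highest mean CPM and any that passed the threshold. The genes and lists were chosen with earlier results of these data known. Windows of 50 bases and gene positions came from GENCODE M21 (GRCm38). Bone marrow precursor, eosinophil and gland lists are given in the closing section.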

Additional observations from a re-analysis of the deposited data

How the results depend on the processing

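None of the tested receptor genes was called in any of the 3 comparisons under DESeq2 (which gave 3 of the 6 no adjusted p for IMQ+VEH against IMQ), other size factors, total counts, a mean count of 50 or more (which left 1 of the 6), no filter or a robust fit, nor with single libraries left out of the comparison against 3 libraries as 1 group (without IMQ 4 of the 6 were fitted). The count of all genes called moved from 0 to 16 without a filter for IMQ+IDMF against IMQ+VEH, from 100 to 200 with DESeq2 and to 424 without a filter for IMQ+VEH against IMQ, and from 0 to 1 with DESeq2 for IMQ+IDMF against the 3 other libraries. The cause was not tested. Direction turned for Clec4d, to 0.51 for IMQ+IDMF against IMQ+VEH without replicate 2 (-1.28 without replicate 1), and for Csf3r, to -0.47 for IMQ+VEH against IMQ without replicate 1 (0.40 without replicate 2). Leaving out either IMQ+VEH library gave 6 to 7 of 9 genes lower in IMQ+IDMF and 6 of 9 lower than IMQ. With both libraries, the counts were 5 and 5. Leaving 1 out could only keep or raise such a count, so this is no check of them. These alternatives were chosen after seeing the data. Other scalings and the FPKM values gave the same counts. No paired analysis was possible because IMQ and IMQ+IDMF hold 1 library each, so the groups share fewer than 2 replicate numbers. With 1 residual degree of freedom (2 in the comparison against 3 libraries as 1 group) and at most 229 counts per gene, a gene that missed the threshold may still differ between groups.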

Other observations

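Genes of granulocyte precursors gave an uneven picture over the libraries. Mpo, myeloperoxidase of the primary granules, had 7 counts in IMQ, 35 and 87 in the IMQ+VEH pair and 29 in IMQ+IDMF, and Prtn3, proteinase 3, had 27, 197, 19 and 78. The 2 genes thus peaked in different IMQ+VEH libraries. Neither was called in any comparison by edgeR, and of the 4 tested genes of the 9 in the precursor list 0 were called. Cebpe was at 0 in all 4 libraries, and Fcnb and Ms4a3, chosen after their values were seen, had at most 1 and 2 counts.

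Eosinophil and basophil markers were also near the floor: the 8 genes summed to 2.21 CPM in IMQ, 2.92 and 1.95 in IMQ+VEH and 1.43 in IMQ+IDMF, and 2 were tested. Among markers of gland and follicle epithelium, Krt71 and Krt35, keratins of the hair follicle, fell in IMQ+VEH against IMQ (edgeR adjusted p = 0.000592 and 0.00458), from 452 to 8 and 3 counts and from 193 to 4 and 0 counts. They were the only 2 of the 11 tested that were called, where 0.325% of all genes tested were called lower. Both IMQ+VEH libraries lay above IMQ for 5 of the 11 and below it for 3, where 33.5% and 35% of all genes tested did. The median log2 fold change of the 11 was 0.79, and the sebaceous lipid gene Scd1 had 1.23 (SE 0.64).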
